A study of Homo sapiens with 3 samples.

Results

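The genes described here are 35 components of the unfolded protein response and of protein folding in the endoplasmic reticulum (ER), taken as a fixed list of gene names. A probe set naming 1 gene was available for 33 of them, of 19775 genes so named in the series. The 2 others, SYVN1 and TXNDC5, share their probe sets with further genes and were not analysed here. RNA of 3 cultures was measured on 1 expression array each. All came from IMR-90 ER:Ras, a derivative of the established human lung fibroblast line IMR-90 in which a Ras protein joined to the ligand-binding region of the estrogen receptor is switched on by 4-hydroxytamoxifen (4-OHT). The first culture had spent 6 days in 100 nM 4-OHT and is labelled OIS, for oncogene-induced senescence. The second had been passaged for 10 weeks and is labelled RS, for replicative senescence, and the third was growing and had no treatment. All 3 carried the ER:Ras construct and were grown in medium with serum. The effects of 4-OHT itself and of active Ras cannot be told apart in this design, nor can time in culture and senescence in RS. In such bulk RNA, fewer cells of a type and less RNA per cell cannot be told apart either. Each array stands for 1 culture, so no difference between conditions has a replicate check or a p-value.

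Secreted and membrane proteins enter the ER through the translocon, fold with the help of chaperones and gain disulfide bonds from protein disulfide isomerases. Unfolded protein in the ER activates the sensors IRE1 (encoded by ERN1), PERK (EIF2AK3) and ATF6, and the mRNAs of chaperones, folding enzymes and the machinery of ER-associated degradation (ERAD) are then made in larger amounts. IRE1 acts by splicing the mRNA of the transcription factor XBP1, ATF6 is cut and travels to the nucleus, and PERK slows translation while favouring that of ATF4. Fibroblasts make large amounts of collagen, and senescent cells secrete many inflammatory proteins, so the pathway bears on both.

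Some member promoters held sequence motifs of the ER stress response. The members were listed as genes of that response, so a high share of its motifs among them is not an independent result. RefSeq promoter windows on GRCh38.p14, from 250 bases before to 50 bases after the first listed start of a gene, were available for 33 of the 35 members and for 27305 genes in all. Each was searched on both strands for the ER stress response element (ERSE, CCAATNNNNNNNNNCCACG), which binds ATF6 together with NF-Y, and for its shorter form ERSE-II (ATTGGNCCACG). The ERSE was present in 7 member promoters (21.2%) and in 22 of all promoters (0.0806%). ERSE-II was present in 3 member promoters (9.09%), none of them with an ERSE, and in 15 of all (0.0549%). Thus 10 members carried an exact match to either. Of the 169 promoters of the further genes described below, which include cytosolic chaperones, 1 held an ERSE and none held ERSE-II.

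The ERSE matches are shown because the motif is rare among all promoters, although most members lack it. They are written in the direction of the motif, with its fixed bases in capitals.
HSPA5 (chr9:125241391-125241409, minus strand): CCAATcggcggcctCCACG
HSP90B1 (chr12:103930216-103930234, plus strand): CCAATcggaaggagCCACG
HSP90B1 (chr12:103930321-103930339, minus strand): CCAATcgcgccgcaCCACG
CALR (chr19:12938384-12938402, minus strand): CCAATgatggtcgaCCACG
CANX (chr5:179698778-179698796, plus strand): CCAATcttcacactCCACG
XBP1 (chr22:28800603-28800621, minus strand): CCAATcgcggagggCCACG
CRELD2 (chr22:49918554-49918572, minus strand): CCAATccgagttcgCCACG
ERO1B (chr1:236282183-236282201, plus strand): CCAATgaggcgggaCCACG

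The ERSE-II matches are written in the same way, and HYOU1 held the motif at 2 places.
HERPUD1 (chr16:56932025-56932035, plus strand): ATTGGgCCACG
HYOU1 (chr11:119057380-119057390, plus strand): ATTGGaCCACG
HYOU1 (chr11:119057274-119057284, plus strand): ATTGGaCCACG
SDF2L1 (chr22:21642114-21642124, minus strand): ATTGGtCCACG

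The UPR element core TGACGTGG was found in DNAJC10 and HYOU1, where the HYOU1 match overlaps an ERSE-II match, and in 0.795% of all promoters. The cAMP response element TGACGTCA was found in CREB3L2 and PPP1R15A and in 1.98% of all promoters. With every listed start of a gene searched in place of the first, an alternative chosen after seeing the data, PDIA6 was added to the ERSE holders (8 members, beside 0.0916% of all genes) and TXNDC5 to the holders of the UPR element core. A match describes the letters of this window and does not show that a factor binds there.

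**Figure D1:**
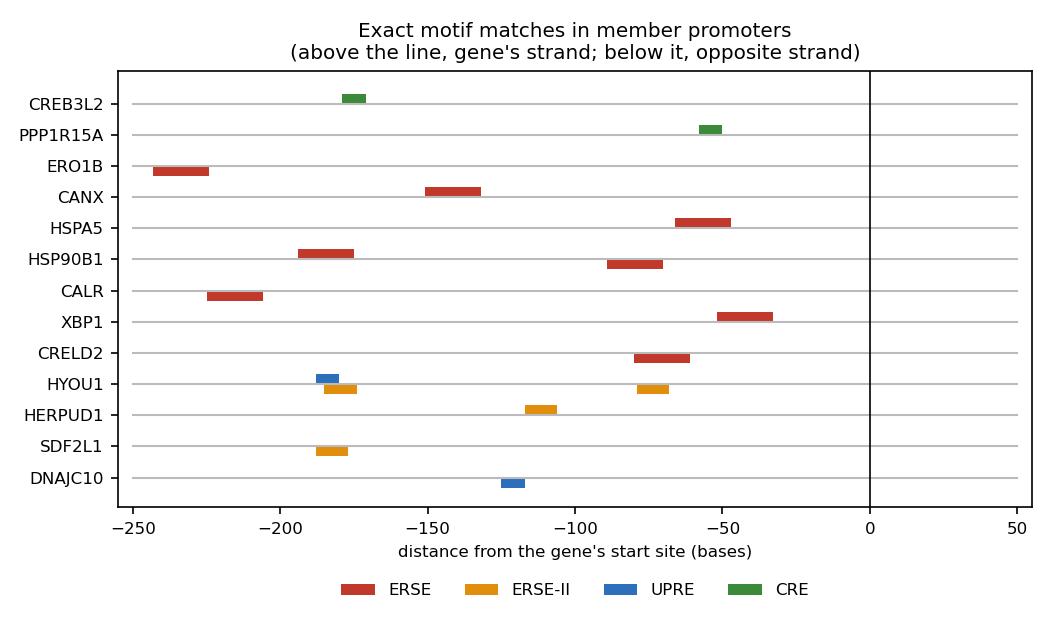
Positions of exact motif matches in the promoters of 13 members, in bases from the gene's start site (250 before to 50 after). Bars above a line lie on the gene's strand and bars below it on the opposite strand, and the ERSE of HSPA5, for example, spans -66 to -48.

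The table of values held 54613 probe sets, each with a linear intensity, called signal below. A floor was set at 45.5 signal units, the median of all values of the 3 arrays, and 49.9% of probe sets lay above it in OIS, 49.8% in RS and 50.3% in growing cells. Of the 19775 named genes, 13466 exceeded it on 1 array or more, and these are the measured genes. All 33 members with a usable probe set were above the floor on all 3 arrays, so none of their ratios rests on a bound. A gene is represented by its brightest probe set. The only repeat reading comes from genes with further probe sets. The SD between log2 ratios of paired probe sets was 0.36 when OIS was set over growing cells (6541 genes), 0.33 when RS was set over growing cells (6529 genes) and 0.36 when OIS was set over RS (6540 genes). That spread covers probe error and not differences between cultures.

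Markers of the labelled cell type were present, since all 12 fibroblast markers were above the floor on each array, with summed signals of 157463 in OIS, 174628 in RS and 163384 in growing cells. Collagens and VIM make up most of these sums. In OIS over growing cells 8 markers were above 0 and 4 below, with log2 ratios from -1.37 for DCN to 3.31 for PDPN. PDPN was near the floor in RS (52.2) and growing cells (55.9). The summed signals of 11 epithelial markers were 3716 in OIS, 7183 in RS and 3835 in growing cells, with 6, 6 and 7 above the floor, and KRT5, CDH1, CLDN4 and SCGB1A1 at or below it throughout. KRT18 makes up most of these sums, with 6010 in RS against 2987 in growing cells. For 8 endothelial markers the sums were 2206.5 in OIS, 2306 in RS and 1499 in growing cells, with 5, 5 and 4 above the floor, and CDH5, KDR and CLDN5 were at or below it on all arrays. TEK makes up most of these sums. Of the 5 markers above the floor on any array, 3 were at least 2-fold higher in OIS than in growing cells, beside 4.92% of all measured genes. By their brightest probe sets these were VWF (2.19-fold), PECAM1 (2.76-fold) and ROBO4 (5.47-fold). VWF and PECAM1 were near the floor in growing cells, at 59.7 and 49.0. Other probe sets had log2 ratios in OIS down to 0.23 for PECAM1 and 0.28 for ROBO4. The median log2 ratio of the 5 was 1.13. Plasma cells, which have a very large ER, were covered by 7 usable markers with sums of 5679 in OIS, 1749 in RS and 1352 in growing cells, 4 of them above the floor on each array. The OIS sum is mostly PRDM1, a transcription factor that other cells also express, with a log2 ratio of 3.49 over growing cells, whereas MZB1, JCHAIN and TNFRSF17 were at or below the floor on every array. For 6 blood cell markers the sums were 264 in OIS, 255 in RS and 241 in growing cells, with PTPRC and LYZ at or below the floor on all. The part of these markers in the results below was not tested.

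The first comparison, of OIS with growing cells, found most ER folding genes somewhat higher in OIS, by amounts that were mostly under 2-fold. Of the 33 members 29 had a ratio above 0 on the log2 scale, beside 47.1% of all measured genes, and 4 below 0, beside 49.9%. The median log2 ratio was 0.34, beside 0.00 over all measured genes. At least 2-fold higher were 4 members (12.1%), ERO1B, ERN1, DNAJB9 and EDEM1, beside 4.92% of all measured genes. None was at least 2-fold lower, beside 6.63%. At 1.5-fold, 9 members were higher, beside 11.7%, and none lower, beside 14.8%. The ratio was above the probe error of 0.36 for 15 members, beside 20.4% of all measured genes, and past it in the other direction for none, beside 24.7%. With 1 array per condition these counts describe the arrays.

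The second comparison, of RS with growing cells, gave a narrower picture in which only ERN1 and DNAJB9 passed 2-fold. When each gene's probe sets were summarised by their median, neither did, at log2 ratios of 0.20 for ERN1 and 0.88 for DNAJB9. These 2 members (6.06%) stand beside 3.72% of all measured genes that were at least 2-fold higher, and no member was at least 2-fold lower, beside 5.58%. At 1.5-fold, 3 members were higher, EDEM3 being the third, beside 10.5% of all measured genes, and none lower, beside 13.2%. Above 0 on the log2 scale were 20 of 33 members, beside 47.1%, and below 0 were 13, beside 49.3%. The median log2 ratio was 0.08, beside 0.00. The ratio was above the probe error of 0.33 for 7 members, beside 21.1% of all measured genes, and below it for 1, ERO1A, beside 24.1%, so the count above is at the background share. This comparison shares the growing array with the first, so a value that is high or low on that array moves both.

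The third comparison set OIS directly against RS. In it 26 of 33 members had a higher signal in OIS, beside 49.0% of all measured genes, and 7 a lower one, beside 48.1%. The median log2 ratio was 0.21, beside 0.00. EDEM1 and ERO1B were at least 2-fold higher in OIS, beside 5.48% of all measured genes, and none was at least 2-fold lower, beside 5.27%. At 1.5-fold, 7 members were higher in OIS, beside 12.4%, and none lower, beside 13.0%. In all, the OIS array held the highest of the 3 signals for 25 of 33 members (75.8%), beside 34.2% of all measured genes. The RS array held it for 6 and the growing array for 2, CREB3L2 and HSP90B1. For 14 members (42.4%) the order from high to low was OIS, RS, growing, beside 16.9% of all measured genes.

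**Figure D2:**
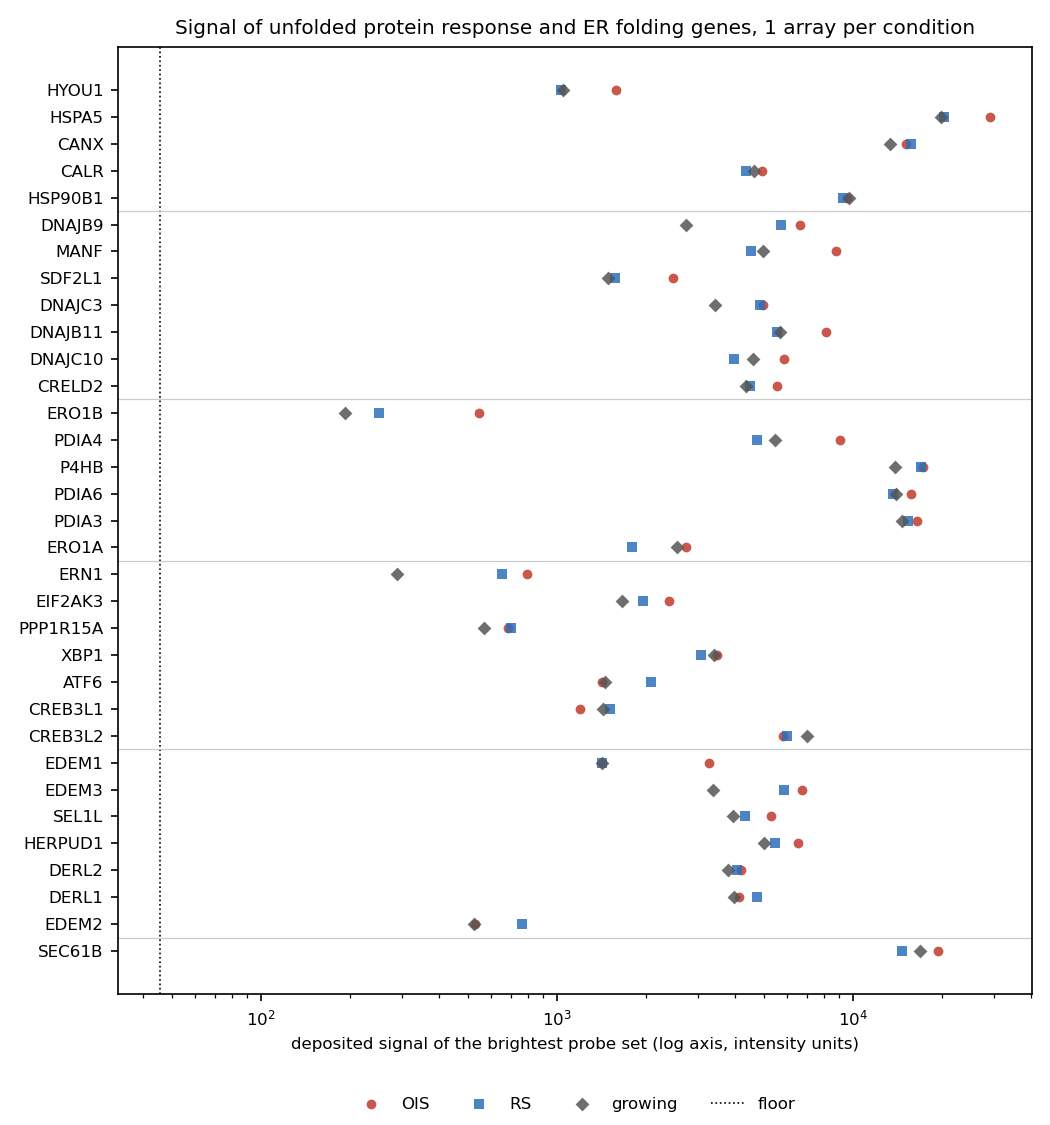
Signal of the brightest probe set of each of 33 members (log axis, intensity units) on the OIS (circles), RS (squares) and growing (diamonds) arrays, with the floor of 45.5 as a dotted line. Genes are grouped from top to bottom as chaperones, J proteins and cofactors, disulfide enzymes, sensors and transducers, ERAD and translocation, and the OIS circle is the rightmost mark for 25 genes.

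Among the general chaperones, HSPA5 and HYOU1 were higher in OIS and, by their brightest probe sets, the lectin chaperones differed little. HSPA5 encodes BiP, the Hsp70 of the ER, which also holds the stress sensors inactive. Its signal was 29117 in OIS and 20323 in RS, against 19813 in growing cells. OIS was thus 1.47-fold higher than growing cells, while RS was within 1.03-fold of them, and the second probe set of HSPA5 gave log2 ratios of 0.36 in OIS and 0.28 in RS. HYOU1, a large relative of Hsp70 that recharges BiP, had signals of 1586 in OIS and 1034 in RS, against 1047 in growing cells. The OIS value stood 1.51-fold above growing cells and the other 2 arrays were nearly level. HYOU1 has 1 usable probe set, so these values have no second reading. HSP90B1, the Hsp90 of the ER known as GRP94, had signals of 9552, 9215 and 9719 in OIS, RS and growing cells, within 1.05-fold of each other. The second probe set of HSP90B1 was 1.17-fold lower in OIS and 1.41-fold lower in RS than in growing cells. The lectin chaperone CALR was 1.06-fold higher in OIS and 1.07-fold lower in RS than in growing cells, and its membrane-bound relative CANX 1.14-fold and 1.18-fold higher. Another probe set of CALR was 1.07-fold lower in OIS and 1.39-fold lower in RS. Of the 5 chaperones none passed 2-fold, and their median log2 ratio was 0.19 for OIS and -0.02 for RS over growing cells. The background shares past 2-fold were 4.92% up and 6.63% down in OIS, and 3.72% up and 5.58% down in RS. A group of 5 without a call thus says little.

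HSPA5 is shown with its whole promoter window (chr9:125241294-125241593, minus strand), the ERSE and every CCACG on either strand (CGTGG as read here) having their fixed bases in capitals. The pentamer CCACG, which ends both ERSE and ERSE-II, was also searched after seeing the data and is common, being present in 22 of 33 member promoters and in 37.9% of all.
HSPA5: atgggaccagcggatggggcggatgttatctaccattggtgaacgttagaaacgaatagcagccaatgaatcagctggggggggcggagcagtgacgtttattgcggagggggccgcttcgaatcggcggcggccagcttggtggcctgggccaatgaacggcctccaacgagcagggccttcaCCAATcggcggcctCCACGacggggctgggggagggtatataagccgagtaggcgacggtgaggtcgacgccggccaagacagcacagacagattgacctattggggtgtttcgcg

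J proteins stimulate BiP and hand it unfolded protein. All 7 members of this group, cofactors included, had higher signals in OIS than in growing cells, beside 47.1% of all measured genes. Their median log2 ratio was 0.54. DNAJB9, a J protein that promotes degradation of misfolded protein and restrains IRE1, had signals of 6605 in OIS and 5698 in RS, against 2718 in growing cells. It was 2.43-fold higher in OIS and 2.10-fold higher in RS than in growing cells. The OIS and RS values lay within 1.16-fold of each other, and the growing array was the low one. Its 2 other probe sets gave 2.53-fold and 2.72-fold for OIS, and 1.84-fold and 2.02-fold for RS. DNAJC3, a J protein also known as an inhibitor of eIF2alpha kinases, had a like order, with signals of 4953 in OIS and 4851 in RS, against 3414 in growing cells. That made it 1.45-fold higher in OIS and 1.42-fold higher in RS, although another probe set of DNAJC3 had a log2 ratio of -0.17 for RS.

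The other members of the group were higher on the OIS array alone, RS lying near growing cells. MANF, a secreted factor that binds BiP, had signals of 8727 in OIS and 4506 in RS, against 4962 in growing cells, 1.76-fold higher in OIS and 1.10-fold lower in RS. SDF2L1, a partner of DNAJB11 in keeping clients soluble, had 2462 in OIS and 1573 in RS, against 1484 in growing cells, a ratio of 1.66-fold for OIS and 1.06-fold for RS. DNAJB11 itself was 1.43-fold higher in OIS and 1.02-fold lower in RS. MANF and SDF2L1 have 1 usable probe set each, as do DNAJB11 and CRELD2, so these values have no second reading. DNAJC10, which reduces disulfide bonds ahead of degradation, was 1.28-fold higher in OIS and 1.16-fold lower in RS, and its 3 other probe sets above the floor had the same signs. CRELD2, an ER stress-induced protein with EGF-like repeats, was 1.27-fold higher in OIS and 1.03-fold higher in RS. For the group of 7, the median log2 ratio of RS over growing cells was 0.05.

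**Figure D3:**
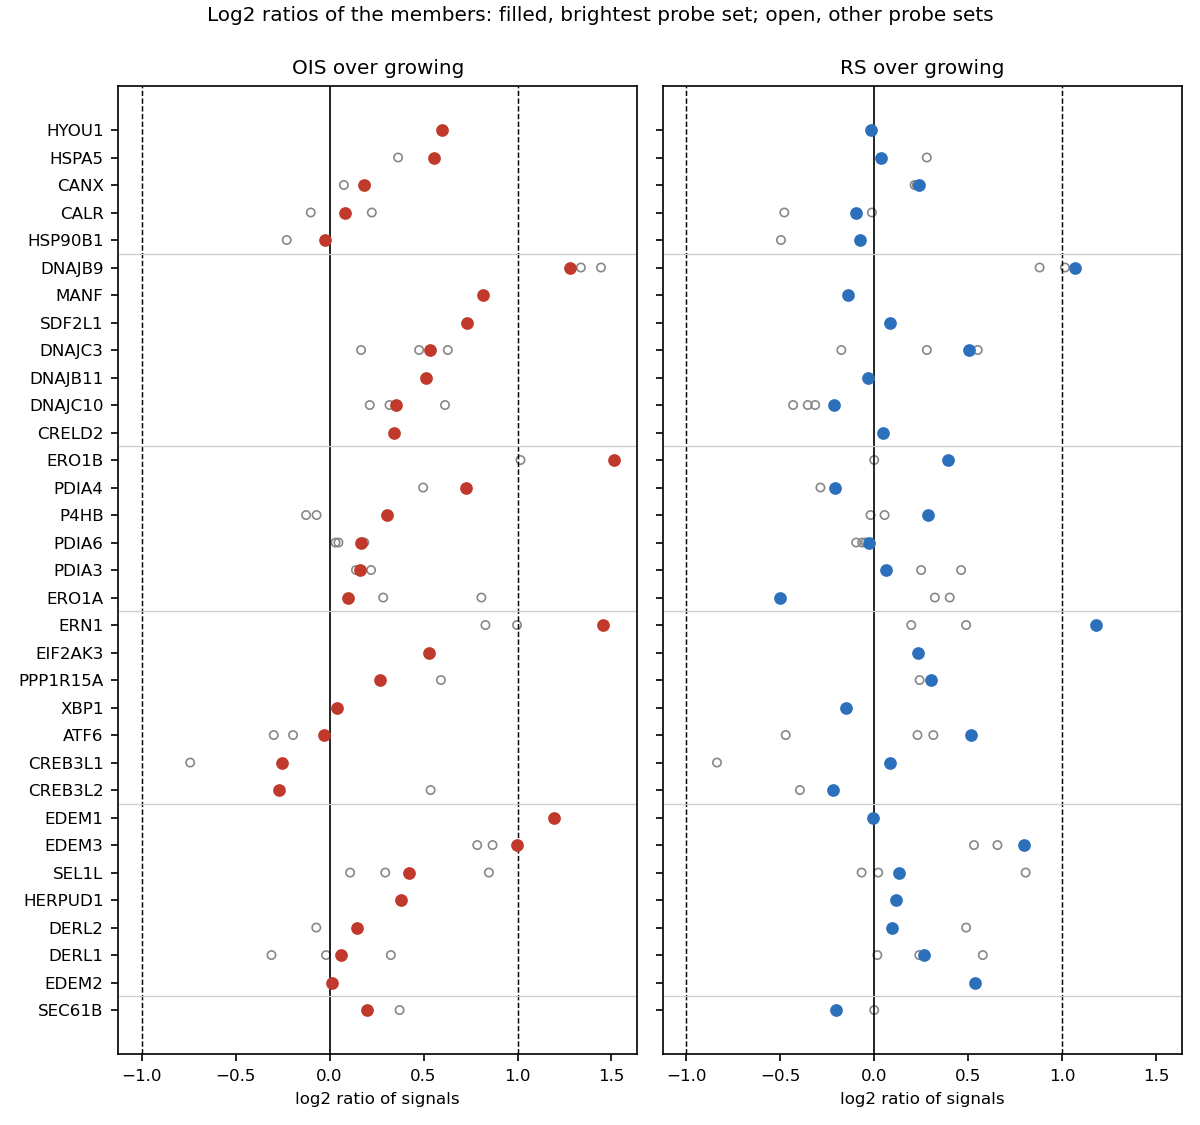
Log2 ratio of OIS over growing cells (left) and RS over growing cells (right) for each member, in the same order of roles. Filled points are the brightest probe sets, open points the other probe sets above the floor, and dashed lines mark 2-fold, which 4 filled points pass on the left and 2 on the right.

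Among the disulfide enzymes, ERO1B and PDIA4 were more than 1.5-fold higher in OIS than in growing cells, and ERO1A depended on the probe set. ERO1B, an oxidase that recharges protein disulfide isomerases, had signals of 547 in OIS and 251 in RS, against 192 in growing cells. It was the member with the highest ratio of OIS over growing cells, 2.85-fold, above 97.7% of all measured genes, and in RS it was 1.31-fold higher. A dimmer probe set of ERO1B, at or below the floor in RS and growing cells, had a signal of 92 in OIS, at least 2.02-fold higher than in growing cells. PDIA4, the isomerase ERp72, had signals of 9048 in OIS and 4736 in RS, against 5471 in growing cells. OIS stood 1.65-fold above growing cells and RS 1.16-fold below them, and the second probe set of PDIA4 gave 1.41-fold higher in OIS and 1.22-fold lower in RS. P4HB, protein disulfide isomerase itself and the beta subunit of collagen prolyl 4-hydroxylase, was 1.23-fold higher in OIS and 1.22-fold higher in RS, but its 2 other probe sets had ratios below 0 for OIS. By their brightest probe sets, PDIA3 and PDIA6 were within 1.12-fold of growing cells in both senescent cultures. Another probe set of PDIA3 was 1.10-fold higher in OIS and 1.38-fold higher in RS. ERO1A, the widely expressed relative of ERO1B, had signals of 2729 in OIS and 1797 in RS, against 2546 in growing cells. OIS was 1.07-fold higher than growing cells by this probe set, and 1.22-fold and 1.75-fold higher by its 2 others. OIS was also 1.52-fold higher than RS by the brightest probe set. No common direction was seen in RS over growing cells: the brightest probe set was 1.42-fold lower and its 2 others had log2 ratios of 0.32 and 0.40.

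The ERO1B promoter is shown because it combines the highest ratio in OIS with an ERSE, which lies on the opposite strand and so reads here as CGTGG, 9 further bases and ATTGG (chr1:236281909-236282208, minus strand). Capitals mark the fixed bases of the ERSE and each further CCACG on either strand.
ERO1B: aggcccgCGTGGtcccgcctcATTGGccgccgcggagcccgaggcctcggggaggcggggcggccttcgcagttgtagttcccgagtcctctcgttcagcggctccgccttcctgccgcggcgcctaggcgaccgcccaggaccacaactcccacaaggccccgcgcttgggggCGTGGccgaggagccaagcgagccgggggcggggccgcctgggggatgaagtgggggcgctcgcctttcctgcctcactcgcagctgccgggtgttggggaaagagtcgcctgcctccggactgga

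Of the sensors, ERN1 was high in both senescent cultures, EIF2AK3 was modestly higher and ATF6 depended on the probe set. ERN1 had signals of 790.4 in OIS and 653 in RS, against 289 in growing cells. It was thus 2.74-fold higher in OIS and 2.26-fold higher in RS, the highest ratio of all members in RS. The other probe sets of ERN1 gave lower ratios in the same direction, just under 2-fold and 1.78-fold for OIS, and 1.15-fold and 1.40-fold for RS. EIF2AK3 had signals of 2397 in OIS and 1951 in RS, against 1661 in growing cells, 1.44-fold and 1.18-fold higher. The only other probe set of EIF2AK3 was below the floor on every array. ATF6 was level in OIS, with 1419 against 1452 in growing cells, and had 2071 in RS, 1.43-fold higher. A second probe set of ATF6 was 1.39-fold lower in RS, while its 2 others had log2 ratios of 0.23 and 0.31, so 3 of its 4 probe sets were higher in RS.

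By their brightest probe sets, the remaining members among the sensors and transducers differed little in mRNA. XBP1 had signals of 3483 in OIS and 3056 in RS, against 3394 in growing cells, within 1.14-fold of each other. The only other probe set of XBP1 was below the floor on every array. Activity of XBP1 depends on splicing of its mRNA, which these values do not report. CREB3L1 and CREB3L2, ER-anchored factors that serve collagen secretion, had the lowest ratios of OIS over growing cells among the members, 1.19-fold and 1.20-fold lower. The second probe set of CREB3L2 had the opposite sign in OIS, at a log2 ratio of 0.54, and was 1.91-fold higher in OIS than in RS. PPP1R15A, known as GADD34, which restores translation after PERK signalling, was 1.20-fold higher in OIS and 1.23-fold higher in RS. Across the 7 sensors and transducers the median log2 ratio was 0.04 for OIS and 0.23 for RS over growing cells.

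Among the ERAD genes, EDEM1 and EDEM3 were higher in OIS and EDEM2 was not. EDEM1, EDEM2 and EDEM3 trim mannose from the glycans of misfolded proteins and so mark them for disposal. EDEM1 had signals of 3255 in OIS and 1420.1 in RS, against 1425 in growing cells. It was 2.28-fold higher in OIS than in growing cells, with RS and growing cells nearly equal, and 2.29-fold higher in OIS than in RS, the highest such ratio of the members. EDEM3 had signals of 6735 in OIS and 5859 in RS, against 3377 in growing cells. At 1.99-fold in OIS it lay just under the 2-fold line, and it was 1.73-fold higher in RS. Its 2 other probe sets gave 1.82-fold and 1.72-fold for OIS, and 1.58-fold and 1.44-fold for RS. EDEM2 had signals of 528 in OIS and 760 in RS, against 524 in growing cells, and was highest in RS, by 1.45-fold over growing cells. EDEM1 and EDEM2 have 1 usable probe set each.

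By their brightest probe sets, the remaining ERAD members and the translocon subunit differed by less than 1.35-fold. SEL1L, the scaffold of the HRD1 ubiquitin ligase, was 1.34-fold higher in OIS and 1.10-fold higher in RS. HERPUD1, which assembles that complex, was 1.30-fold and 1.08-fold higher. Another probe set of SEL1L was 1.80-fold higher in OIS and 1.75-fold higher in RS, and a further one was 1.05-fold lower in RS. DERL1 and DERL2, channel proteins through which substrates leave the ER, were within 1.11-fold of growing cells in OIS and 1.20-fold and 1.07-fold higher in RS. Probe sets of both had mixed signs for OIS, and other probe sets reached 1.49-fold higher for DERL1 and 1.40-fold higher for DERL2 in RS. SEC61B, a subunit of the translocon, was 1.15-fold higher in OIS and 1.15-fold lower in RS. For the 7 analysed ERAD members the median log2 ratio was 0.38 for OIS and 0.13 for RS over growing cells.

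The 3 remaining members past 2-fold had no exact ERSE or ERSE-II in the window. DNAJB9 (chr7:108569624-108569923, plus strand) and EDEM1 (chr3:5187457-5187756, plus strand) each held CCACG at 2 places, in capitals below, and ERN1 (chr17:64130095-64130394, minus strand) at none. They are shown for comparison with HSPA5 and ERO1B.
DNAJB9: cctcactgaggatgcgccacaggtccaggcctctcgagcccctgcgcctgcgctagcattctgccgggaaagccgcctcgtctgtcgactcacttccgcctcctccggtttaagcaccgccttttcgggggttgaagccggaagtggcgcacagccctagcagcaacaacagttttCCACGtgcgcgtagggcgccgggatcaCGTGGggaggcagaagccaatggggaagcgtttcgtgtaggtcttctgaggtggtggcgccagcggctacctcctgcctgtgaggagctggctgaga
EDEM1: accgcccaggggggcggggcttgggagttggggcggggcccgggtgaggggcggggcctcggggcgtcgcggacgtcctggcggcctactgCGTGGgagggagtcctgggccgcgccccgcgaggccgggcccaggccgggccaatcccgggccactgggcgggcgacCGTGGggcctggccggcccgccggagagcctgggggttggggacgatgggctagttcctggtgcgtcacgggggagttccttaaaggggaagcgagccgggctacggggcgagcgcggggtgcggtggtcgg
ERN1: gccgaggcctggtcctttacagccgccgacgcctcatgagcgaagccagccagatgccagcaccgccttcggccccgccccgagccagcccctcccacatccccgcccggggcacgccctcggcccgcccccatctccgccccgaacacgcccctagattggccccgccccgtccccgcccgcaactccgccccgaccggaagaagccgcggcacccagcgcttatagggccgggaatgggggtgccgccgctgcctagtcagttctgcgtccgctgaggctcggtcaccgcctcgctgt

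Members with and without either ERSE form had similar median ratios. The 10 members with ERSE or ERSE-II had a median log2 ratio of 0.36 for OIS over growing cells, ranging from -0.02 for HSP90B1 to 1.51 for ERO1B. The 21 analysed members with a promoter window and neither motif had a median of 0.35, ranging from -0.27 for CREB3L2 to 1.45 for ERN1. For RS over growing cells the medians were 0.04 with a motif and 0.10 without. Of the members at least 2-fold higher in OIS, 1 of 4 held either motif. These medians are a description across genes, which are not replicates.

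The 9 further lists of the same pathway held 199 genes, of which 187 were measured. Over all 9 lists the median log2 ratio was 0.12 for OIS and 0.08 for RS over growing cells. At least 2-fold higher in OIS were 4 of the 187 (2.14%), ATF3, TMX4, MOGS and CHAC1, beside 4.92% of all measured genes, and 1, ERLIN1, was at least 2-fold lower, beside 6.63%. In RS none was at least 2-fold higher, beside 3.72%, and 4 were lower, DDIT4, ASNS, VLDLR and GPX7, beside 5.58%. Calls were thus no more frequent in these lists than among all measured genes. Ratios above 0 were more frequent, for 126 of the 187 in OIS (67.4%) and 112 in RS (59.9%), beside 47.1% of all measured genes in each. In RS the members had nearly the same share above 0, 60.6%, and the same median, 0.08.

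**Figure D4:**
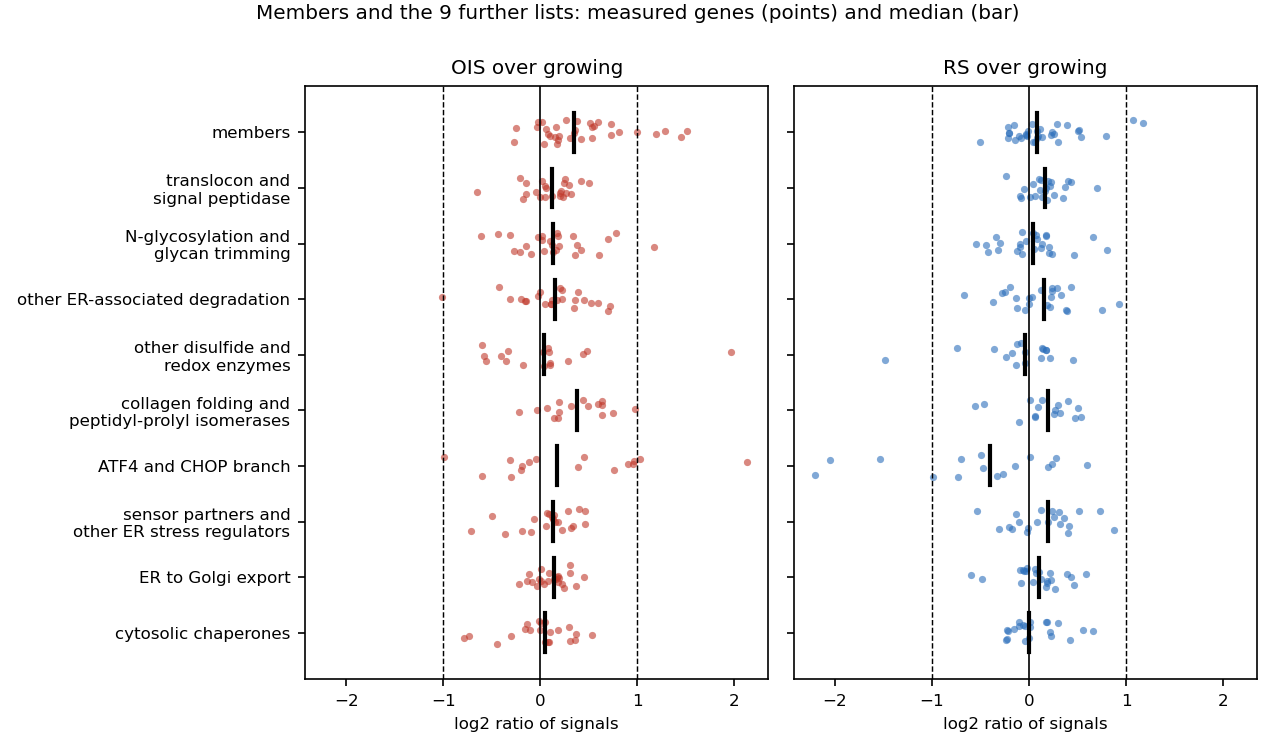
Log2 ratios of OIS over growing cells (left) and RS over growing cells (right) for the measured genes of the member list and of 9 further lists. Points are genes, with vertical scatter for legibility, bars are medians and dashed lines mark 2-fold. The member median is 0.34 on the left and 0.08 on the right, and the ATF4 and CHOP branch has the lowest median on the right, -0.40.

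Collagen folding enzymes had the highest median of the further lists in OIS, 0.38, with 14 of 16 above 0, beside 47.1% of all measured genes. None was at least 2-fold higher, beside 4.92%, and 6 were at least 1.5-fold higher, beside 11.7%. P4HA2, a catalytic subunit of collagen prolyl 4-hydroxylase, had signals of 14862 in OIS and 10962 in RS, against 7544 in growing cells, 1.97-fold and 1.45-fold higher. P3H1, a prolyl 3-hydroxylase of collagen, was 1.68-fold higher in OIS and 1.07-fold lower in RS, while its partner CRTAP was 1.16-fold lower in OIS. Another probe set of CRTAP had the opposite sign in OIS, at a log2 ratio of 0.30. SERPINH1, the collagen chaperone HSP47, was 1.10-fold higher in OIS and 1.47-fold lower in RS. The list median for RS was 0.20.

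Translocon and signal peptidase genes had medians of 0.12 for OIS and 0.16 for RS, with none of 23 past 2-fold. The background shares past 2-fold were 4.92% up and 6.63% down in OIS, and 3.72% up and 5.58% down in RS. With shares this small, a list of 23 without a call says little. TRAM2, an aid to collagen translocation, was 1.57-fold lower in OIS, and SPCS3, a signal peptidase subunit, was 1.63-fold higher in RS. Both sizes depend on the probe set, since another of TRAM2 had a log2 ratio of -0.01 for OIS and another of SPCS3 had 0.30 for RS. N-glycosylation genes had medians of 0.13 for OIS and 0.05 for RS. MOGS, the glucosidase that starts glycan trimming, was 2.25-fold higher in OIS and 1.10-fold higher in RS. ALG2, a mannosyltransferase that builds the glycan precursor, was 1.72-fold higher in OIS, and UGGT1, which tests folding by reglucosylation, was 1.24-fold lower in OIS and 1.46-fold lower in RS. GFPT1, the entry enzyme of hexosamine synthesis, was 1.62-fold higher in OIS and 1.57-fold higher in RS. Further probe sets of GFPT1 and UGGT1 included one with the opposite sign for OIS.

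Other ERAD genes had a median of 0.15 in each comparison with growing cells. ERLIN1, an ER membrane protein of sterol regulation and ERAD, had signals of 2507 in OIS and 3916 in RS, against 5057 in growing cells, 2.02-fold lower in OIS. FAM8A1, a subunit of the HRD1 complex, was 1.64-fold higher in OIS and 1.90-fold higher in RS. The lectin ERLEC1 was 1.62-fold and 1.35-fold higher, though its other probe sets had log2 ratios down to -0.14 for OIS and -0.76 for RS. Other disulfide and redox enzymes had medians of 0.04 for OIS and -0.04 for RS. TMX4, a membrane-bound thioredoxin-like protein, stood out with 14201 in OIS and 3520 in RS, against 3630 in growing cells, 3.91-fold higher in OIS. GPX7, a peroxidase of the ER, had 325 in OIS and 153 in RS, against 429 in growing cells, 2.80-fold lower in RS.

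Sensor partners and other ER stress regulators had medians of 0.13 for OIS and 0.19 for RS, none of 21 passing 2-fold. The shares of measured genes doing so were 4.92% up and 6.63% down in OIS, and 3.72% up and 5.58% down in RS. A list of 21 without a call thus says little. SIL1, a nucleotide exchange factor of BiP, was 1.32-fold higher in OIS and 1.84-fold higher in RS, whereas HYOU1, with the same task, was higher on the OIS array alone. ER to Golgi export genes had medians of 0.14 and 0.11, and the cargo receptor LMAN1 was 1.29-fold higher in OIS and 1.06-fold lower in RS. Cytosolic chaperones, which serve outside the ER, had medians of 0.05 and 0.00. None of 21 was past 2-fold against growing cells, beside the same shares of all measured genes. HSPB1, a small heat shock protein, was 1.73-fold lower in OIS and 1.58-fold higher in RS.

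The ATF4 and CHOP branch, downstream of PERK and of the other eIF2alpha kinases, had the highest median for OIS over RS among the 9 further lists. Of its 16 genes 14 had a higher signal in OIS than in RS, beside 49.0% of all measured genes. At least 2-fold higher in OIS were 6, beside 5.48% of all measured genes. The list median was 0.71 for OIS over RS, 0.17 for OIS over growing cells and -0.40 for RS over growing cells. DDIT3, which encodes CHOP, had signals of 1701 in OIS and 529 in RS, against 878 in growing cells. It was 1.94-fold higher in OIS and 1.66-fold lower in RS than in growing cells. TRIB3, a pseudokinase induced by CHOP, had 2513 in OIS and 745 in RS, against 1483 in growing cells, and so was 1.69-fold higher in OIS and 1.99-fold lower in RS. ATF3, a stress-induced factor, had 2482 in OIS and 666 in RS, against 566 in growing cells, 4.38-fold higher in OIS. That size depends on the probe set, since the log2 ratios over the 3 probe sets of ATF3 ran from 0.36 to 2.13 for OIS and from -0.38 to 0.23 for RS.

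DDIT4, ASNS and VLDLR had their lowest signal in RS, at least 2-fold under growing cells. DDIT4, an inhibitor of mTOR signalling, had 4343 in OIS and 690 in RS, against 3182 in growing cells, 4.61-fold lower in RS. ASNS, asparagine synthetase, had 4444 in OIS and 1628 in RS, against 6733 in growing cells, 1.51-fold lower in OIS and 4.13-fold lower in RS. VLDLR was 2.91-fold lower in RS. CHAC1, which degrades glutathione, was higher in both senescent cultures, at 2.04-fold higher in OIS and 1.52-fold higher in RS. ATF4 mRNA itself was 1.14-fold lower in OIS and 1.40-fold lower in RS, its protein being set mainly by translation. PPP1R15B, the constitutive counterpart of PPP1R15A, was 1.95-fold higher in OIS and 1.15-fold higher in RS. The kinases EIF2AK1, EIF2AK2 and EIF2AK4 were within 1.31-fold of growing cells in both senescent cultures by their brightest probe sets. Another probe set of EIF2AK4 had log2 ratios of -1.08 for OIS and -1.37 for RS, and another of EIF2AK2 had -0.81 for RS.

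**Figure D5:**
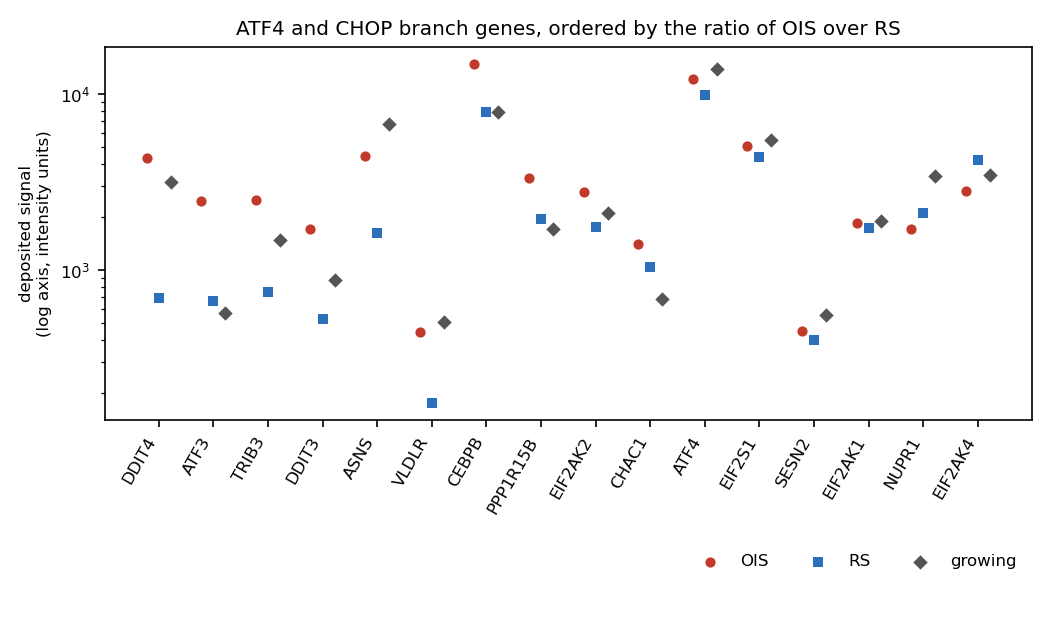
Signals (log axis, intensity units) of 16 ATF4 and CHOP branch genes on the OIS (circles), RS (squares) and growing (diamonds) arrays, ordered from left to right by the ratio of OIS over RS. DDIT4 leads at 4343 in OIS against 690 in RS, and only NUPR1 and EIF2AK4, at the right, have a higher signal in RS than in OIS.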

How the data were processed

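Total RNA of 3 cultures was labelled as biotinylated cRNA and measured on 1 Affymetrix expression array each, per the labels' protocols. Each value the authors deposited is a linear intensity of a probe set from MAS5, a program named in the submitters' processing notes; its version is not given in the sources used here. The mean without the outer 2% of values was 497 on each array, so the arrays share a scale, and a shift common to all genes would not show in the ratios.

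Genes were named from the platform annotation, in which 41091 probe sets named 1 gene, 1801 several and 11721 none, and 41037 of the first were found in the RefSeq table. Values below the floor of 45.5 were set to it, then log2 was taken. Ratios were formed over the whole table of 13466 measured genes, and 2-fold counted as a difference. No test was possible with 1 array per group. The calculation was tested on simulated data. The members, lists, rules and alternatives were chosen with earlier results of these data known. The genes named in the text come from the members, the markers, the ATF4 and CHOP branch, and the 2 highest and 2 lowest genes of each further list in OIS and RS over growing cells. Sequences are RefSeq's (GRCh38.p14). Values carry no genome build. Python 3.11.15, numpy 2.4.6, pandas 2.3.3 and matplotlib 3.10.9 were used.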

Additional observations from a re-analysis of the deposited data

Results flagged for a closer look

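Only the members and those genes of the further lists that the naming rule above admits were searched here. Of these, 6 had ratios to growing cells of opposite sign in OIS and RS. Each ratio was larger than the probe error by the brightest probe set, and none of the 6 is a member. The share of all measured genes meeting this rule was not calculated, so the count has no background beside it. The difference between the senescent cultures was not tested, since each rests on 1 array, and both ratios use the same growing array. The log2 ratio of DDIT3 was 0.95 for OIS and -0.73 for RS over growing cells, that of TRIB3 0.76 and -0.99 (0.37 and -0.49 by its other probe set), and that of DDIT4 0.45 and -2.21. For FKBP7, a peptidyl-prolyl isomerase of the ER, it was 0.59 for OIS and -0.46 for RS, but its lowest probe set was at -0.19 for OIS, so the opposite signs depend on the probe set. The 2 cytosolic chaperones ran the other way. The log2 ratio of DNAJB4 was -0.74 for OIS and 0.42 for RS, and that of HSPB1 was -0.79 for OIS and 0.66 for RS. DDIT3, DDIT4 and HSPB1 have 1 probe set above the floor each, so their values have no second reading.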

How the results depend on the processing

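No paired analysis was possible because each group had 1 array, and no replicate could be left out. Over 8 alternatives (quantile normalization, centring, a floor at 11.7 or 88.8, a pseudocount of 16 in place of the floor, all genes kept, the median of all probe sets, and leaving out probe sets ending in _s_at or _x_at), the member median ranged from 0.29 to 0.34 for OIS over growing cells, from 0.04 to 0.09 for RS over growing cells and from 0.21 to 0.28 for OIS over RS. With 1.5-fold in place of 2-fold, 9 members were higher in OIS than in growing cells in place of 4, and 7 higher in OIS than in RS in place of 2. With 3-fold, 0 were higher in any of the 3 comparisons. The count of 2 in RS became 0 with the median of all probe sets, where the log2 ratio was 0.20 for ERN1 and 0.88 for DNAJB9, and 1 without the _s_at and _x_at probe sets, which left 27 members. Under the first of these ERN1 was just under 2-fold for OIS over growing cells. Of 99 member ratios, 12 moved by more than the probe error with the median of all probe sets and 0 under each of 6 other alternatives. Most of the latter could not move a member ratio. The lowest member signal, 191.7 for ERO1B in growing cells, lay above every floor, so neither the floors nor keeping all genes mattered. Centring subtracted a median of 0.00. Quantile normalization moved member ratios within the probe error, for OIS over growing cells from 0.19 to 0.06 for CANX and from 1.45 to 1.55 for ERN1. The counts of members above 0 on the log2 scale were not recomputed under the alternatives. Without the _s_at and _x_at probe sets, 6 of the member ratios left moved by more than the probe error. No call turned direction under any of these alternatives. Probe sets of P4HB, CALR, HSP90B1, PDIA3, ERO1A, ATF6, CREB3L1 and CREB3L2 differ enough that their ratios depend on which is used. For HERPUD1, EIF2AK3 and XBP1 the only other one was below the floor.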
